A study of Sus scrofa with 40 samples.

Results

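The effect of 6 h of cold storage on ischemic kidney was examined in the corticomedullary junction (CMJ), the zone between the outer cortex and the medulla that holds the straight proximal tubules, the thick ascending limbs and the start of the collecting system. The comparison was formed by sample titles and used no measured value: the 5 arrays of warm ischemia followed by 6 h of cold storage (WI+CS6h-CMJ) were set against the 5 arrays of warm ischemia alone (WI-CMJ), which are 10 of the 40 arrays of the series. All kidneys came from Large White pigs aged 3 months, which the methods describe as brothers from 1 breed. WI kidneys were clamped, taken out and kept clamped for 60 min at 37 °C, then sampled. WI+CS6h kidneys had the same 60 min of warm ischemia, were then flushed with cold University of Wisconsin solution and were sampled after 6 h at 4 °C. The same 5 kidneys were sampled again at 24 h (WI+CS24h), whereas the WI kidneys and the untreated control kidneys (Ctl) were other organs. No kidney was reperfused with blood. The flush, the solution, the 4 °C, the 6 h of extra time and the change of kidney all separate the groups at once and cannot be told apart.

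During warm ischemia, oxygen and substrate are cut off while the tissue is still at body temperature, so that ATP falls and adenosine, lactate and calcium rise. Cooling slows metabolism and most enzymes, including RNA polymerases and RNases, but does not stop them, and the University of Wisconsin solution is a potassium-rich fluid with osmotic agents that limit cell swelling. Tubule cells of this zone rely on fatty acid oxidation for ATP, and the straight proximal tubule is the segment best known for injury after ischemia. In bulk tissue, fewer cells of a type and less RNA per cell give the same signal and cannot be told apart.

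Expression was measured on single-color Agilent porcine arrays whose probes are 60 bases long. A level is a log2 signal after quantile normalization, where 1 unit is a doubling, and a difference is WI+CS6h minus WI. An identifier (a transcript entry of the array) was called when limma's Benjamini-Hochberg adjusted p was under 0.05 and the difference was at least 0.5 in either direction. Spots well above background made up 64.7% ± 2.0 (SD, n = 5) of each WI-CMJ array and 66.9% ± 2.0 (SD, n = 5) of each WI+CS6h-CMJ array, a difference of 2.14 percentage points (two-sided exact permutation test over 252 splits, p = 0.159). Arrays correlated at 0.988 to 0.992 within WI-CMJ, at 0.985 to 0.993 within WI+CS6h-CMJ and at 0.981 to 0.989 between the groups, and no pair of arrays held the same values. The labels call the kidneys independent, so that the spread between arrays includes that between animals.

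The probes behind the results are shown here for the genes on which the account turns. DICER1, which cuts precursors into mature microRNAs, and FUT2, a fucosyltransferase that builds the H antigen, each had a probe with an open reading frame, printed whole, 5′ to 3′ as the array files give it. For KCNIP4, a calcium-sensing partner of Kv4 potassium channels, and CDO1, cysteine dioxygenase, the enzyme that commits cysteine to taurine and sulfate, the first 30 bases of their single probe are given. No base is in capitals, since no part of a probe was singled out.
DICER1 (NM_001197194): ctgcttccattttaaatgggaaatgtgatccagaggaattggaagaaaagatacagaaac
FUT2 (NM_214069): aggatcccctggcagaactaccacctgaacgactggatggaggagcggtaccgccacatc
KCNIP4 (ENSSSCT00000030135): tgtacactgaaatttgccatcgcgtgtttg
CDO1 (ENSSSCT00000015537): cagtggtcaaagactttgtactgctgccaa

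After 6 h in the cold, CDO1 was about 11.0 times lower than after warm ischemia alone, KCNIP4 was 3.75 times lower and DICER1 was 1.53 times higher. CDO1 read 8.30, 8.39, 8.20, 8.20 and 8.00 in WI-CMJ samples 1 to 5. It read 5.13, 5.01, 4.00, 3.87 and 5.80 in WI+CS6h-CMJ samples 1 to 5. All 5 cold samples lay below all 5 WI samples, and the difference was -3.46 ± 0.35 (SE, limma adjusted p = 2.5e-05). The untreated kidneys stood at 8.37 ± 0.33 (SD, n = 5), close to the WI level, and the 24 h samples of the cold-stored kidneys at 5.03 ± 0.73 (SD, n = 5).

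KCNIP4 read 4.66, 4.88, 4.81, 4.22 and 5.00 in the WI samples. It read 2.93, 2.68, 3.37, 2.16 and 2.89 in the 6 h samples. The groups did not overlap and the difference was -1.91 ± 0.31 (SE, limma adjusted p = 0.0017). KCNIP4 levels in untreated kidneys, 3.75 ± 0.62 (SD, n = 5), lay between the WI and the 6 h means.

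DICER1 read 6.61, 6.75, 6.79, 6.90 and 6.44 in WI-CMJ. It read 7.20, 7.37, 7.54, 7.38 and 7.04 in WI+CS6h-CMJ. The lowest cold sample was above the highest WI sample, and the difference was small but steady, 0.61 ± 0.10 (SE, limma adjusted p = 0.0016), with untreated kidneys at 6.93 ± 0.04 (SD, n = 5). The call for CDO1 held under all 25 alternative settings. Its size did not, with differences from -3.71 to -1.47, the smallest with normexp, and -2.6 with the deposited values. For DICER1 and KCNIP4 the call was lost for size alone with normexp background correction (offset 50), with differences of 0.31 and -0.22 (limma adjusted p = 0.0034 and 0.00039). Their calls were also lost with slide as a fixed block (differences of 0.61 and -1.85, limma adjusted p = 0.092 and 0.076).

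**Figure D1:**
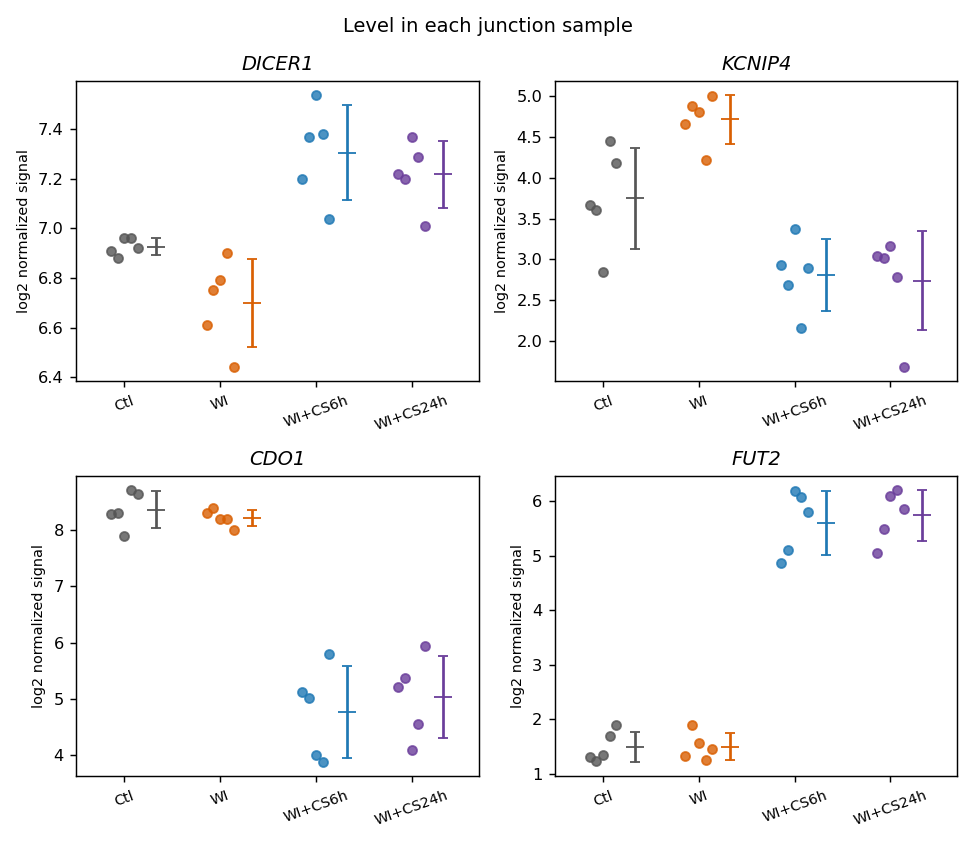
Level (log2 normalized signal, vertical axes with a range of their own) of DICER1, KCNIP4, CDO1 and FUT2 in each junction sample of the 4 groups, with the mean and SD of 5 samples beside the points. In all 4 genes the WI+CS6h samples lie apart from the WI samples, and the WI+CS24h samples, from the same kidneys, lie near the WI+CS6h samples.

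Across the array, 35938 identifiers were tested and 1000 were called (2.78%), of which 494 were higher (1.37%) and 506 were lower (1.41%) after 6 h of cold. The median difference of all identifiers was 0.00513. Samples of the groups did not overlap for 795 of the 1000 calls, against 5.91% of all identifiers tested. The choice of calls on these same arrays fixes this contrast in large part. Most calls were modest, with a median size of 0.81 for rises and 0.815 for falls. A difference of at least 1 was reached by 159 rises and 169 falls, and one of at least 3 by 5 rises and 6 falls. Of the rises, 386 were well above background on at least 3 of 5 arrays in both groups, as were 431 of the falls.

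These counts depended on how the arrays were corrected. Slide as a fixed block left 65 calls and normexp background correction left 148. The deposited log2 values gave 475, and leaving out WI-CMJ sample 5 or sample 3 left 587 or 654. Slide as a random block gave 1189 calls and kept 98.2% of the calls made here, and scan day as a fixed block gave 1087. With the fixed slide block the differences stayed near those above, at -3.57 for CDO1, -1.85 for KCNIP4 and 0.61 for DICER1. Why the fixed slide block left fewer calls than the random one was not tested. With quantile normalization within each group, 1605 identifiers were called and 76.6% of them were higher, against 49.4% here. Normexp put 32.4% of its calls higher. The array slides 4 and 10 each held 1 sample of both groups, and the differences within them were -2.50 and -4.33 for CDO1, -1.76 and -2.65 for KCNIP4 and 0.43 and 0.59 for DICER1. Within both slides 475 of the 494 rises and 488 of the 506 falls had their direction, which the choice of calls made on these same arrays fixes in large part. Of the 60 genes picked by rule for description, 23 kept their call with normexp and 6 with the slide block, namely CDO1, FUT2, RHOV, IL6, WDR64 and GSTA4. Beside the genes whose normexp differences are given, those that lost their call with normexp were CCSER1, TLL2, RCOR2, TRIM4, NNAT, PI15, PPARA, GSTA4, SOD3, NR4A2, VEGFA, TMX4, ATP2B1, ORAI1, USP1, USP2, KITLG, MAB21L1, ANGPTL7, HTR1D and SERPINA5.

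**Figure D2:**
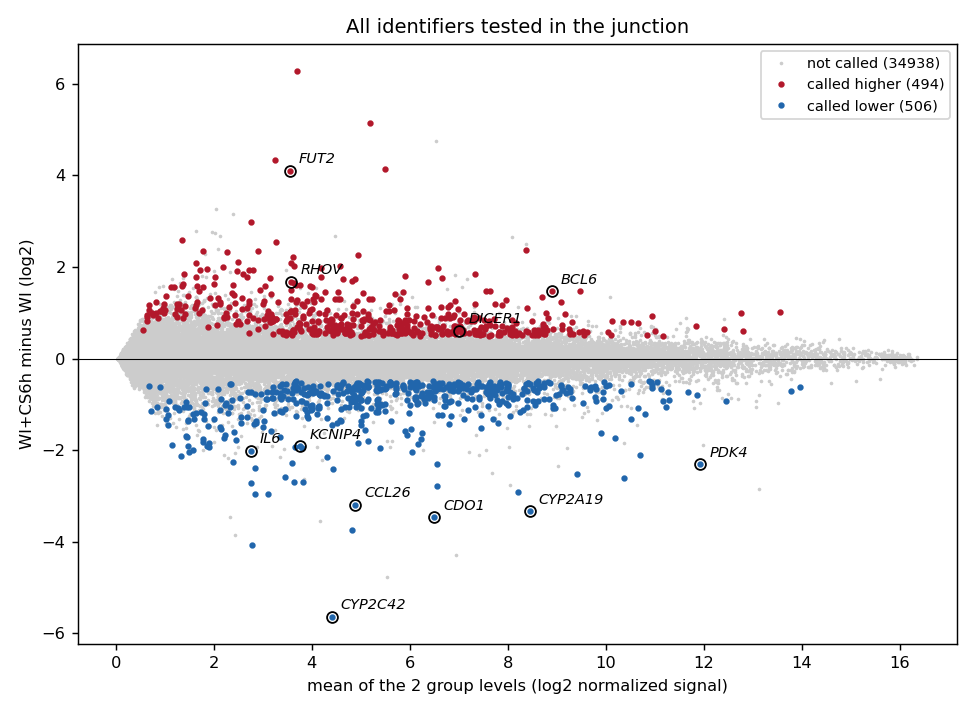
Difference WI+CS6h minus WI (log2, vertical axis) of each identifier against the mean of the group levels (log2 normalized signal, horizontal axis), with 494 called higher in red, 506 called lower in blue and selected genes circled. Falls of named genes reach down to CYP2C42 at -5.63, where the cold level was above background on 1 of 5 arrays, and FUT2, at 4.10, averages 2 probes not above background in WI.

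For genes with a symbol, 7456 genes could be given by 1 identifier each, the one well above background on most of the 10 arrays. Of these, 264 were called (3.54%), 94 higher (1.26%) and 170 lower (2.28%). FUT2, averaged over its 3 probes, read 1.32, 1.89, 1.56, 1.26 and 1.46 in WI-CMJ and 4.86, 5.10, 6.18, 6.07 and 5.80 in WI+CS6h-CMJ. The difference was 4.10 ± 0.26 (SE, limma adjusted p = 5.5e-08), with untreated kidneys at 1.49 ± 0.28 (SD, n = 5). The size of this mean difference rests largely on 2 probes that were not well above background in WI. The probe printed above, the 1 FUT2 probe well above background in both groups, went from a mean of 3.92 to 5.42, while the other 2 probes were not well above background on any WI array (means 0.39 and 0.19) and reached 5.39 and 5.99 after 6 h of cold. With normexp the FUT2 difference was 0.47, under the threshold.

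RHOV, a small GTPase related to Cdc42, rose by 1.68 ± 0.15 (SE, limma adjusted p = 8e-06) as the mean of 3 probes, from 2.49 to 3.03 across the WI samples to 4.26 to 4.72 across the 6 h samples. The 1 RHOV probe well above background on every array rose by 1.96, a second was above it on 1 of 5 WI arrays and the third on none, and the RHOV difference fell under the threshold with normexp (0.28) and the deposited values (0.41). BCL6, a transcriptional repressor best known from germinal center B cells, read 8.16, 8.39, 8.17, 8.03 and 8.03 in WI-CMJ and 9.66, 9.88, 9.93, 9.94 and 8.75 in WI+CS6h-CMJ. Sample 5 of the cold group thus had the lowest level of its group, and the difference was 1.48 ± 0.26 (SE, limma adjusted p = 0.0032). PARD6B, a scaffold of the epithelial polarity complex, rose by 1.48 ± 0.27 (SE, limma adjusted p = 0.0048), and its second identifier, at 0.37, was not called (limma adjusted p = 0.13).

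The other large rises were those of STK31, FAM204A, GUCY2C (the intestinal guanylate cyclase receptor), TLL2 (a tolloid-like protease), CCSER1, LYPD6, RCOR2 (a corepressor that works with the demethylase LSD1) and TRIM4. All 7 probes of FAM204A well above background rose, by 0.95 to 2.65. The rise of GUCY2C, 1.47 ± 0.36 (SE, limma adjusted p = 0.029), lost its call when any of 5 of the 10 arrays was left out (adjusted p up to 0.09, without WI-CMJ sample 5), and that of STK31 went to -0.03 with normexp.

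Large falls beside that of CDO1 were those of the cytochrome P450 gene CYP2A19, a drug-metabolizing enzyme, and of CCL26, the eosinophil-attracting chemokine eotaxin-3. CYP2A19 read 9.82, 10.05, 9.96, 10.36 and 10.35 in WI-CMJ. It read 8.55, 8.55, 6.53, 6.70 and 3.56 in WI+CS6h-CMJ. The cold samples were all below the WI samples but far apart from each other (SD 2.04 against 0.24 in WI), and the difference was -3.33 ± 0.87 (SE, limma adjusted p = 0.039). All 7 CYP2A19 probes fell, by 2.78 to 3.73. Its call was lost when any of 8 of the 10 arrays was left out (adjusted p up to 0.089, without WI-CMJ sample 5).

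CCL26 read 6.44, 6.41, 7.07, 5.29 and 7.16 in WI-CMJ and 4.20, 4.21, 1.34, 2.39 and 4.28 in WI+CS6h-CMJ. The difference was -3.19 ± 0.55 (SE, limma adjusted p = 0.0028), but -0.68 with normexp and -1.64 with the deposited values. DLK1, a Notch-like ligand of immature cells, fell by 2.69 ± 0.31 (SE, limma adjusted p = 9.5e-05), from 4.42 to 5.45 across the WI samples to 1.63 to 2.72 across the 6 h samples. IL6, the acute-phase cytokine, read 4.05, 3.84, 3.49, 3.86 and 3.57 in WI-CMJ and 1.79, 1.87, 1.46, 1.12 and 2.49 in WI+CS6h-CMJ, a difference of -2.01 ± 0.25 (SE, limma adjusted p = 0.00024). In the cold group IL6, DLK1 and EDN1 were well above background on 3 of 5 arrays and CCL26 on 4 of 5, and 1 of the 2 IL6 probes was above it on no cold array. With normexp the differences of IL6, DLK1 and EDN1 were -0.14, -0.25 and -0.16, under the threshold, and that of IL6 was -0.49 with the deposited values. A second identifier that the files label IL-6 was well above background on 3 of 5 WI arrays and on no 6 h array, so that its fall was at least 1.28-fold (limma adjusted p = 0.00035). That call was lost with normexp (-0.05), the deposited values (-0.27) and the slide block (limma adjusted p = 0.078). Levels of IL6 in untreated kidneys, 3.98 ± 0.36 (SD, n = 5), were near those of WI.

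EDN1, which encodes the vasoconstrictor endothelin-1, fell by 1.93 ± 0.36 (SE, limma adjusted p = 0.0049), with WI samples from 4.08 to 5.11 and 6 h samples from 1.31 to 3.51. NNAT (neuronatin) fell by 1.80 ± 0.30 and C13H21orf62 by 1.86 ± 0.32 (SE, limma adjusted p = 0.0022 and 0.0028). PI15, a protease inhibitor, was 4.45 times lower (limma adjusted p = 0.028), and this call was lost without any of 7 of the 10 arrays (adjusted p up to 0.086). The WI samples of PI15 ranged from 3.75 to 6.60 and the 6 h samples from 2.75 to 3.61.

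**Figure D3:**
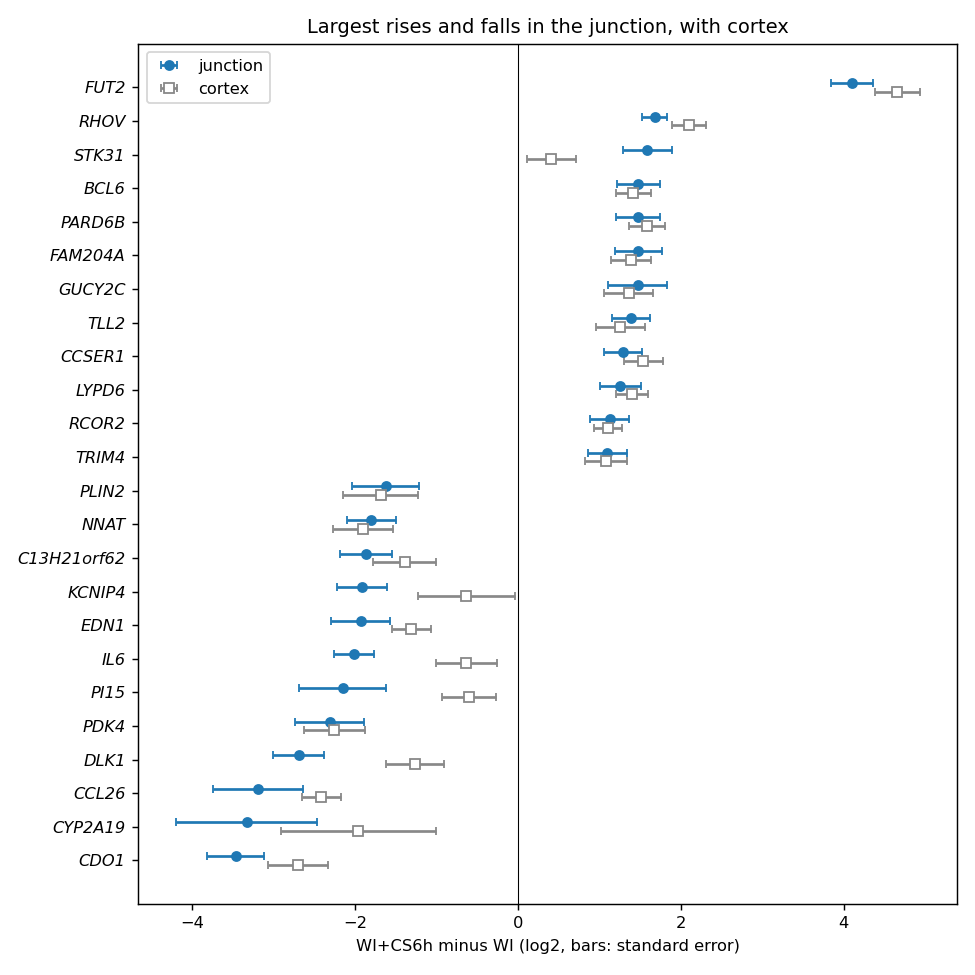
Difference WI+CS6h minus WI (log2, horizontal axis, bars are standard errors) for 12 rises and 12 falls in the junction, with the difference of the same gene in cortex. They are the largest among called genes with a symbol that were above background in both groups and whose groups did not overlap. The FUT2 point averages 2 probes that were not well above background in WI-CMJ. STK31, IL6, PI15 and KCNIP4 have smaller mean differences in cortex than in the junction.

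For some genes the lower group was not well above background on any array. There the fold is a bound, taken against the dimmest signal still well above background on each array. WDR64 was at least 2.13-fold higher, KITLG (the ligand of the KIT receptor) at least 1.63-fold, MAB21L1 at least 1.25-fold and XRCC2 (a gene of DNA repair) at least 1.18-fold higher after 6 h of cold (limma adjusted p = 0.00014, 0.047, 0.018 and 0.016). ABCB11, the bile salt export pump, was at least 1.59-fold lower, ANGPTL7 at least 1.45-fold, HTR1D (a serotonin receptor) at least 1.21-fold and SERPINA5 (protein C inhibitor) at least 1.13-fold lower (limma adjusted p = 0.0074, 0.046, 0.043 and 0.034). The higher group was itself well above background on 4 of 5 arrays for MAB21L1, XRCC2 and ABCB11, and on 3 of 5 for ANGPTL7, HTR1D and SERPINA5. Samples of the groups overlapped for ANGPTL7, HTR1D and SERPINA5. The calls of KITLG, ANGPTL7 and SERPINA5 were each lost without any of 8 of the 10 arrays, that of HTR1D without any of 9 and that of MAB21L1 without WI+CS6h-CMJ sample 1 (adjusted p up to 0.13, 0.13, 0.09, 0.12 and 0.053). That of XRCC2 was lost with normexp (0.08), the deposited values (0.30), the slide block (adjusted p = 0.098) and the share of spots above background as a covariate (adjusted p = 0.057). WDR64 lost its call with normexp (0.17) and the deposited values (0.38), as did ABCB11 (-0.07 and -0.28), which lost it with the slide block too (adjusted p = 0.17).

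Genes of fatty acid oxidation and its control held 5 called falls. Of 31 measured genes on that list, 5 were called lower, 1 was called higher and 25 were not called. Their median difference was -0.22, against 0.000318 for all genes with a symbol, and 19.4% were called against 3.54% of those genes. PDK4, the kinase that shuts pyruvate out of the citric acid cycle when fat is burned, read 13.26, 13.13, 13.08, 12.93 and 12.98 in WI-CMJ and 10.53, 10.44, 11.48, 11.96 and 9.44 in WI+CS6h-CMJ. The WI samples were close together (SD 0.13) and the cold samples spread more widely (SD 0.98), with a difference of -2.31 ± 0.42 (SE, limma adjusted p = 0.0045) and all 9 probes lower, by 2.01 to 2.52.

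HADHA, a subunit of the mitochondrial trifunctional protein of beta-oxidation, read 11.06, 11.21, 11.23, 11.06 and 11.42 in WI-CMJ and 9.83, 9.89, 10.66, 10.56 and 9.63 in WI+CS6h-CMJ. The difference was -1.08 ± 0.21 (SE, limma adjusted p = 0.0072). CPT2, which rebuilds acyl-CoA inside mitochondria, read 8.25, 8.43, 8.70, 8.75 and 8.64 and then 7.69, 7.81, 8.07, 7.74 and 7.03, a difference of -0.89 ± 0.17 (SE, limma adjusted p = 0.0052). DBI, an acyl-CoA binding protein, fell by 0.63 ± 0.17 (SE, limma adjusted p = 0.048). None of these 4 genes had overlapping groups, and DBI was added after its values were seen. The list member called higher was PPARA, the nuclear receptor that drives transcription of many of these enzymes. It read 5.59, 5.60, 5.62, 5.68 and 5.75 in WI-CMJ and 7.25, 7.01, 6.12, 6.66 and 5.85 in WI+CS6h-CMJ (0.93 ± 0.23, SE, limma adjusted p = 0.031), but a second PPARA identifier, at 0.08, was not called (limma adjusted p = 0.91).

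Of the 31 members, 30 were well above background on at least 3 of 5 arrays in both groups. The groups did not overlap for 11 of the 31 members, against 5.91% of all identifiers, which include dim ones. Of these, 5 were lower in every 6 h sample but missed the call, namely ANGPTL4 (-1.19), ACAA1 (-0.87), ACSL1 (-0.84), HSD17B4 (-0.54) and HADHB (-0.50). ACADM (0.27), ETFA (0.25) and ECI2 (0.18) had small positive differences and were not called. PLIN2, which coats lipid droplets, is outside the list and fell by 1.62 ± 0.41 (SE, limma adjusted p = 0.033), with 6 h samples at 9.30, 9.30, 9.79, 9.52 and 7.49 against 10.41 to 11.05 in WI-CMJ. The call of PLIN2 was lost without any of 7 of the 10 arrays (adjusted p up to 0.088) and for PPARA the adjusted p went up to 0.084. Over the 31 genes, slide as a fixed block left no call (median -0.25), and normexp left 4 falls and no rise. Slide as a random block gave 7 falls and 1 rise (median -0.22). Leaving out 1 array at a time gave 3 to 7 falls, with 3 when WI-CMJ sample 3 or 5 or WI+CS6h-CMJ sample 1 or 5 was left out, and the rise of PPARA was lost without any of 8 arrays.

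**Figure D4:**
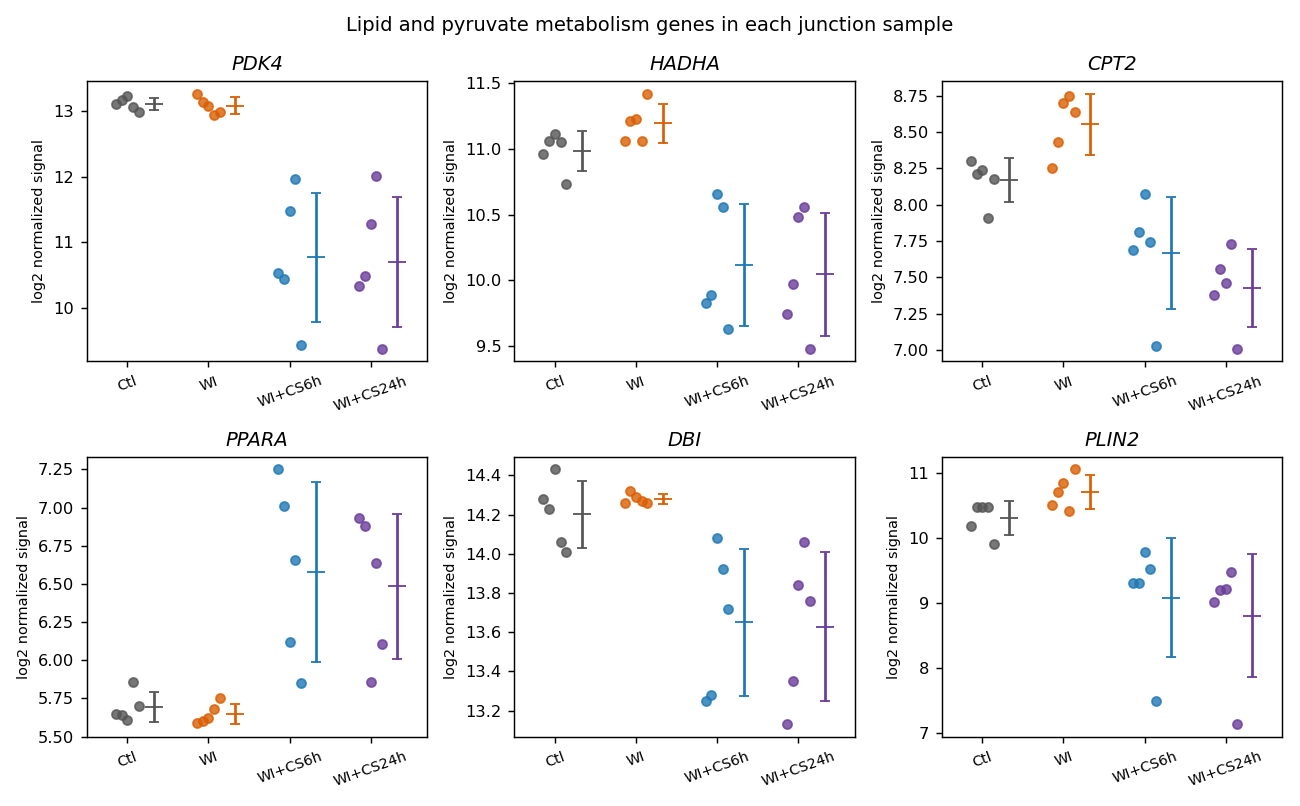
Level (log2 normalized signal, vertical axes with a range of their own) of PDK4, HADHA, CPT2, PPARA, DBI and PLIN2 in each junction sample of the 4 groups, with mean and SD of 5 samples. All WI+CS6h points lie above all WI points for PPARA and below them for the other 5 genes, and the 6 h points are more spread than the WI points.

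Of 37 measured genes of NF-kB signalling and cytokines, 2 were called lower, 2 higher and 33 were not called (10.8% called against 3.54% of all genes with a symbol, median -0.20). The falls were CCL26 and IL6, given above. The rises were BCL6 and CXCL2, a neutrophil chemokine, which went from 7.97 to 8.73 across the WI samples to 8.91 to 9.39 across the 6 h samples (0.75 ± 0.20, SE, limma adjusted p = 0.04). The call of CXCL2 was lost without any of 9 of the 10 arrays (adjusted p up to 0.12). TNF (-0.21), CXCL8 (-0.27), NFKBIA (-0.30) and PTGS2 (-0.18) were not called.

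Of 26 measured hypoxia targets, 2 were called lower, 1 higher and 23 were not called (median -0.03), to be read against 3.54% of all genes with a symbol. EPO, the hormone of red cell production, made by interstitial cells near this zone, read 7.57, 5.45, 7.23, 7.69 and 7.59 in WI-CMJ and 5.29, 5.93, 4.51, 5.43 and 5.56 in WI+CS6h-CMJ. WI sample 2 fell inside the range of the cold samples, and the difference was -1.76 ± 0.42 (SE, limma adjusted p = 0.026). The call of EPO was lost without any of 6 of the 10 arrays (adjusted p up to 0.075). DDIT4, an inhibitor of mTORC1 signalling, fell by 0.89 ± 0.19 (SE, limma adjusted p = 0.012) without overlap. VEGFA, the endothelial growth factor, rose by 0.50 ± 0.09 (SE, limma adjusted p = 0.0027), just at the threshold, and its second identifier, at 0.23, was not called (limma adjusted p = 0.49). The call of VEGFA was lost without any of 6 arrays, when its difference went down to 0.48. Glycolysis genes of the list such as LDHA (0.09) and PGK1 (0.06) were not called.

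Of 33 measured genes of glutathione metabolism and NRF2 targets, 3 were called lower, none higher and 30 were not called (9.09% called against 3.54% of all genes with a symbol, median 0.01). GSTA2, an alpha-class glutathione transferase, read 11.25, 8.33, 11.12, 11.31 and 11.30 in WI-CMJ and 8.94, 9.01, 7.46, 7.38 and 7.96 in WI+CS6h-CMJ. WI sample 2 stood far below the other WI samples and inside the range of the cold samples, and the difference was -2.51 ± 0.52 (SE, limma adjusted p = 0.01). The call of GSTA2 was lost when the 10 compared arrays were fitted alone (limma adjusted p = 0.066), a setting that ended the calls of 16 of the 60 named genes. GSTA4 fell by 0.74 ± 0.08 (SE, limma adjusted p = 3.7e-05), and SOD3, the extracellular superoxide dismutase, by 1.05 ± 0.29 (SE, limma adjusted p = 0.047). The call of SOD3 was lost without any of 7 of the 10 arrays (adjusted p up to 0.13). GSTA1, another alpha-class member, had the list's largest difference and was not called, at 6.75 ± 1.85 in WI-CMJ and 9.40 ± 0.91 in WI+CS6h-CMJ (SD, n = 5, difference 2.65 ± 1.01, SE, limma adjusted p = 0.17). HMOX1 (0.70), NQO1 (-0.33) and GCLM (0.06), commonly used NRF2 targets, were not called.

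In the microRNA machinery, 1 of 8 measured genes was called (12.5% against 3.54% of all genes with a symbol), DICER1, which was given with the comparison. DROSHA (0.20) and DGCR8 (0.19) were not called, and the list's median was 0.16. Among 19 potassium channels and partners, 2 were called lower and none higher (10.5% called, against 3.54% of all genes with a symbol). These were KCNIP4, given with the comparison, and KCNJ2, an inward rectifier, at -0.88 ± 0.17 (SE, limma adjusted p = 0.0067). KCNJ2 shrank to -0.08 with normexp and -0.25 with the deposited values and lost its call. KCNIP1 (0.67) and KCNIP2 (0.33), the other KCNIP genes measured, were not called. Among 15 enzymes of cysteine, methionine and taurine metabolism, CDO1, given with the comparison, was the 1 gene called (6.67% against 3.54% of all genes with a symbol). CSAD (-0.33), the next step towards taurine, and CTH (0.26) were not called.

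Of 22 measured heat shock genes and chaperones, 2 were called higher, none lower and 20 were not called (9.09% called against 3.54% of all genes with a symbol, median 0.21). DNAJA4, a cochaperone of the HSP70 system, rose by 0.76 ± 0.17 and HSPA4L, of the HSP110 family, by 0.65 ± 0.12 (SE, limma adjusted p = 0.017 and 0.0049). The call of DNAJA4 was lost without WI-CMJ sample 5 (adjusted p = 0.056). Both fell under the threshold with normexp (DNAJA4 0.27, HSPA4L 0.09) and with the deposited values (0.46 and 0.31). All 22 were well above background on at least 3 of 5 arrays in both groups. The groups did not overlap for 10 of the 22, against 5.91% of all identifiers, which include dim ones. Among them, HSPH1 (0.44), DNAJB1 (0.36), HSP90AA1 (0.27) and HSPA8 (0.30) were higher in all 5 cold samples than in any WI sample but were not called, HSPH1 and HSPA8 for size alone (limma adjusted p = 0.0087 and 0.0091), and the inducible gene labelled HSP70 stood at -0.29. Of 20 measured splicing factors, none was called by limma with the identifier that stands for the gene (a second SRSF1 identifier, at mean levels of 0.21 and 1.44, was called higher), 9 had an unadjusted p under 0.05 (as had 22.7% of all genes with a symbol), 19 had a positive difference and the median was 0.18. RSRC2 (0.40) and SRSF5 (-0.41) missed the call for size alone (limma adjusted p = 0.0042 and 0.017). The cold-inducible RNA-binding genes CIRBP and RBM3, on the same list, were not analysed here.

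Of 23 measured immediate early genes, 1 was called higher and 1 lower (8.7% called against 3.54% of all genes with a symbol, median -0.01). NR4A2, an orphan nuclear receptor, rose by 1.18 ± 0.32 (SE, limma adjusted p = 0.046), with the groups overlapping through WI+CS6h-CMJ sample 5 at 6.85. The call of NR4A2 was lost without any of 9 arrays (adjusted p up to 0.11), and its second identifier, at 0.26, was not called (limma adjusted p = 0.67). CTGF, a matricellular growth factor, fell by 0.75 ± 0.17 (SE, limma adjusted p = 0.02), a call lost without WI-CMJ sample 5 (adjusted p = 0.061). FOS (0.39), JUN (0.11) and EGR1 (0.02) were not called.

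Shares called were 12.5% of 16 endoplasmic reticulum stress genes, 8.33% of 24 calcium pumps and channels and 23.1% of 13 ubiquitin genes, against 3.54% of all genes with a symbol. In the first list, TMX4, a thioredoxin-related membrane protein, was called higher (0.53 ± 0.12) and DNAJC3, an inhibitor of the kinase PERK, lower (-0.67 ± 0.15, SE, limma adjusted p = 0.021 and 0.015). Among the calcium genes, ATP2B1, a plasma membrane calcium pump, was called higher (0.51 ± 0.11) and ORAI1, the store-operated calcium channel, lower (-0.53 ± 0.13, SE, limma adjusted p = 0.018 and 0.026). A second ORAI1 identifier, at -0.24, was not called (limma adjusted p = 0.6). Among the ubiquitin and deubiquitinating genes, ZFAND5 fell by 0.85 ± 0.12 over 15 probes that all fell, USP2 fell by 0.51 ± 0.11, and USP1 rose by 0.52 ± 0.11 (SE, limma adjusted p = 0.00053, 0.012 and 0.016). The calls of TMX4 and ATP2B1 were each lost without any of 4 arrays, that of ORAI1 without any of 5 and those of USP1 and USP2 without any of 3 (adjusted p up to 0.064, 0.047, 0.081, 0.051 and 0.036). Sizes under 0.5 ended some of these calls, with values down to 0.48, 0.43, -0.45, 0.44 and -0.44. With the identifier that stands for the gene, no member was called by limma among 20 respiratory chain, 20 cell death and cell cycle arrest and 10 clock genes, whose medians were 0.05, -0.15 and -0.02 and of which 0, 9 and 1 had an unadjusted p under 0.05, against 22.7% of all genes with a symbol. A second identifier of ZMAT3, a p53 target, was called lower (-0.54 ± 0.13, SE, limma adjusted p = 0.027).

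**Figure D5:**
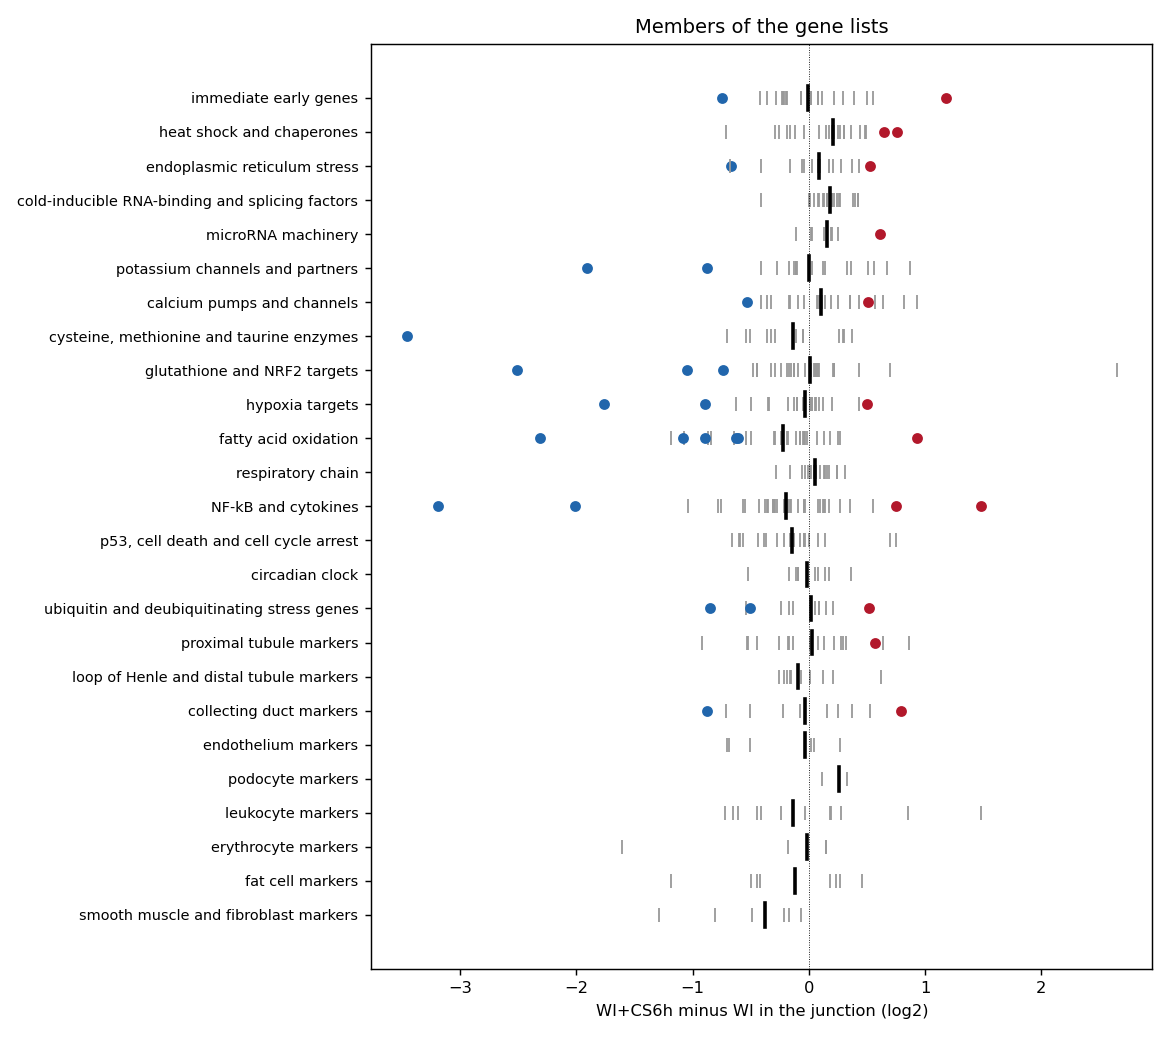
Difference WI+CS6h minus WI (log2, horizontal axis) of each measured member of the 25 gene lists, 1 row a list, with called members as red (higher) or blue (lower) dots, the others as gray ticks and the median as a black bar. The fatty acid oxidation row holds 5 blue dots, most other rows hold between 0 and 3 called members, and the cold-inducible row shows splicing factors only.

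Markers of kidney cell types were used to check the tissue and its makeup. The tissue held signal of proximal tubule genes (AQP1 at 16.33 and SLC34A1 at 14.34 in WI-CMJ), of thick ascending limb genes (SLC12A1 at 10.74, KCNJ1 at 12.45) and of the collecting duct gene AQP2 at 12.50. Shares called were 5.26% of 19 proximal tubule and 18.2% of 11 collecting duct markers, against 3.54% of all genes with a symbol. Among the first, SLC22A2, an organic cation transporter, was called higher (0.57 ± 0.12, SE, limma adjusted p = 0.0096) and none was called lower, and that call was lost with normexp (0.43) and the deposited values (0.30). Among the second, AQP3, a basolateral water channel, was called lower (-0.88 ± 0.21) and SCNN1G, a subunit of the epithelial sodium channel, higher (0.79 ± 0.18, SE, limma adjusted p = 0.024 and 0.023). These last 2 calls were each lost without any of 5 arrays (adjusted p up to 0.063 and 0.07). None of 11 loop of Henle and distal tubule, 8 endothelium, 3 podocyte, 12 leukocyte, 4 erythrocyte, 8 fat cell and 7 smooth muscle and fibroblast markers was called by limma, and 1, 3, 0, 3, 0, 2 and 2 of them had an unadjusted p under 0.05, against 22.7% of all genes with a symbol.

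The mean level over each marker list overlapped between the groups in all but the podocyte list. It ran from 10.96 to 11.17 in WI-CMJ and from 10.71 to 11.35 in WI+CS6h-CMJ for proximal tubule, from 3.98 to 4.38 and from 4.01 to 4.56 for leukocytes, and from 5.13 to 5.92 and from 4.61 to 5.74 for erythrocytes. For smooth muscle and fibroblast markers it ran from 7.95 to 9.45 and from 8.06 to 8.40, and all 7 of those genes had a negative difference (median -0.38). The 3 podocyte markers ran from 5.79 to 5.99 and from 6.00 to 6.30. Whether the makeup of the samples had a part in the other results was not tested.

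The study itself singled out 72 genes, 60 of which were measured here with a symbol. As they were chosen on these samples, their counts are no independent evidence. In this comparison 11 were called higher, 16 lower and 33 were not called (45% called, against 3.54% of all genes with a symbol). CYP2C42, a cytochrome P450, went from 7.26, 8.75, 8.39, 3.12 and 8.61 in WI-CMJ to 1.38, 2.13, 1.34, 2.45 and 0.66 in WI+CS6h-CMJ, where 1 array of 5 was well above background, so that the size of its fall is not fully measured. The fitted difference was -5.63 ± 0.98 (SE, limma adjusted p = 0.0031), but -1.36 with normexp and -2.83 with the deposited values. Untreated kidneys also held 1 sample far below the other 4 for CYP2C42 (3.58 against 7.54 to 8.51).

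The same comparison in cortex, with 5 arrays a group, called 692 identifiers (1.93%). Among the 1000 junction calls, 303 were also called in cortex in the same direction, which is 30.3% of the junction calls and 43.8% of the cortex calls, and none was called in the opposite direction. The median cortex difference was 0.551 for the 494 junction rises and -0.718 for the 506 junction falls. The methods describe both tissues as taken from the kidneys of each group, so that they are no independent repeat. The labels do not say whether a number marks the same kidney in both, and deviations of same-numbered samples correlated at 0.13 to 0.46 in WI+CS6h and at 0.04 to 0.18 in WI. Most of the genes described above had a cortex difference of the same sign, such as FUT2 (4.66 over its 3 probes), CDO1 (-2.70), PDK4 (-2.25), CCL26 (-2.41) and CYP2C42 (-6.15), all called there. DICER1 (0.46), KCNIP4 (-0.63) and IL6 (-0.63) were not called in cortex.

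The difference between the tissues was tested directly, as an interaction term over all 40 arrays, with no term for shared kidneys. By limma, 0 of 35934 identifiers passed (0%), with a smallest adjusted p of 0.463, and 1783 had an unadjusted p under 0.05 (4.96%). For KCNIP4 the junction minus cortex difference was -1.28, for IL6 -1.38, for DLK1 -1.43 and for STK31 1.18, none of them called. A call in 1 tissue only was thus not shown to be a difference between the tissues. Quantile normalization within each group, which leaves group-wide shifts in place, called 522, and leaving out WI+CS6h-C sample 2 called 1.

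Against the same WI arrays, the 24 h samples of the cold-stored kidneys gave 1024 calls (2.85%). Both comparisons share the WI arrays, and the 6 h and 24 h samples share the kidneys. The 24 h differences were close to those at 6 h for CDO1 (-3.18), KCNIP4 (-1.98), DICER1 (0.52), FUT2 (4.24 over its 3 probes), PDK4 (-2.38), IL6 (-1.92) and HADHA (-1.15). Between 24 h and 6 h, 1 identifier without a symbol was called by limma (0.00278%), and 1238 had an unadjusted p under 0.05. That fit ignored the shared kidneys, and with the kidney as a fixed or a random block limma called 0 or 5 (1722 and 3100 at an unadjusted p under 0.05). The deviations of a kidney from its group mean, over all identifiers, correlated at 0.33 to 0.61 between 6 h and 24 h for the 5 kidneys, and each kidney correlated best with itself.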

How the data were processed

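Log2 intensity values were computed from the processed signal that the authors deposited for each single-color Agilent array, made per the file headers with Feature Extraction 11.5.1.1. The submitters' notes name limma and R 2.15.2 for their own normalized log2 matrix, which was used as an alternative. Control spots were left out and spots with outlier flags were set missing (0.0639% to 0.158% of spots of the 10 arrays). The 43803 spots were quantile normalized over 40 arrays and averaged to 35955 identifiers. The 20 CMJ arrays were fitted with 1 term a group (limma 3.58.1, R 4.3.3), with Benjamini-Hochberg adjustment over all identifiers. Symbols came from the files, from gene tables of RefSeq (Sscrofa11.1) or, for 33 identifiers, from the full gene name, and named 8963 identifiers. Named genes were DICER1, KCNIP4 and CDO1, the 12 largest rises and 12 largest falls among called genes above background without overlap, up to 5 bounds each way, up to 4 called members of each list, and up to 6 genes called for the tissue difference (none was). A gene with several identifiers was given by the one above background on most arrays. Other genes given with values were chosen after the values were seen. A called member of the fatty acid list is counted but not reported here. The members and the 26 lists were chosen with earlier results of these data known. Fits were tested on simulated data. Alternatives covered scaling, background correction, filters, probes, slides, scan days, blocks and left-out arrays. The normexp background correction added an offset of 50 to the signal before the logarithm was taken. The precision is limited by the number of arrays.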

Additional observations from a re-analysis of the deposited data

Results flagged for a closer look

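For 14 of 122 groups of 5 samples examined, 1 sample stood far from the other 4, where chance sets about 1 in 20 groups apart. In WI+CS6h-CMJ, sample 5 was the distant one for 7 genes. It lay below the others for BCL6 (8.75 against 9.66 to 9.94), LYPD6 (6.69 against 7.63 to 7.90), NR4A2 (6.85 against 7.97 to 8.35), PLIN2 (7.49 against 9.30 to 9.79) and TRIM4 (5.69 against 6.61 to 6.77), and above them for DNAJA4 (6.88 against 6.45 to 6.54) and ATP2B1 (9.08 against 8.59 to 8.70). Sample 3 of that group was high for ANGPTL7 (1.58 against 0.57 to 0.75). In WI-CMJ, sample 2 was low for GSTA2 (8.33 against 11.12 to 11.31) and EPO (5.45 against 7.23 to 7.69) and high for ZFAND5 (10.49 against 10.10 to 10.18). Sample 1 was high for HSPA4L (4.35 against 4.02 to 4.07) and TMX4 (7.03 against 6.49 to 6.61), and sample 4 was low for CYP2C42 (3.12 against 7.26 to 8.75).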

How the results depend on the processing

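The 1000 calls (494 higher, 506 lower) became 1605 with quantile normalization within each group (1230 higher), 148 with normexp (48 higher, 100 lower), 475 with the deposited log2 values (193 higher, 282 lower), 65 with slide as a fixed block (35 higher, 30 lower) and 614 with the share of spots above background as a covariate (296 higher, 318 lower). The cause was not tested. Leaving out 1 array at a time gave 587 to 1066 calls, 274 to 516 higher and 313 to 550 lower, with the fewest without WI-CMJ sample 5 and 654 without WI-CMJ sample 3. The other settings gave 741 to 1189 calls, the most with slide as a random block. The tissue difference of the 6 h effect, with 0 calls by limma (1783 at an unadjusted p under 0.05), had 522 with quantile normalization within each group and 0 to 1 when 1 array was left out. For the 60 named genes, 1192 of 1500 values kept direction and call, 307 kept direction but lost the call, and 1 reversed, that of STK31 with normexp (-0.03). CDO1 was the gene called under all 25 settings. Of the 60, 36 stayed called without each of the 10 arrays. Replicate numbers did not pair WI with WI+CS6h samples (correlations of -0.15 to 0.02), and a replicate block gave 1120 calls and kept 57 of the 60. With the kidney as a block, added after seeing the data, the comparison of 24 h with 6 h had 0 calls (fixed) or 5 (random) in place of 1, and that of 6 h with WI had 1124 (random). Levels near background limit the falls of dim genes to bounds.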

Other observations

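The kidney of WI+CS6h-CMJ sample 5 was sampled again at 24 h, and all 7 genes that stood apart at 6 h lay outside the range of the other kidneys on the same side then. At 24 h its levels were 8.57 for BCL6 (the other kidneys 9.35 to 10.21), 6.56 for LYPD6 (7.66 to 8.01), 6.70 for NR4A2 (8.02 to 8.57), 7.14 for PLIN2 (9.01 to 9.48), 5.39 for TRIM4 (6.65 to 6.91) and 9.17 for ATP2B1 (8.45 to 8.66). DNAJA4 was at 7.04 (6.34 to 6.94).

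Gene families taken by symbol after the values were seen showed the following. Of 33 cytochrome P450 genes, 5 were called lower and none higher (15.2% called, against 3.54% of all genes with a symbol, median -0.05). Beside CYP2C42 and CYP2A19 these were CYP39A1 (-1.25 ± 0.13) and CYP27A1 (-1.03 ± 0.20), which hydroxylate sterols on the way to bile acids, and CYP4A21 (-0.93 ± 0.12, SE; limma adjusted p = 3.5e-05, 0.0067 and 0.00033). Of 20 ABC transporters, 15% were called, against 3.54% of all genes with a symbol. Of these, ABCC2, an apical export pump for conjugates, was called higher (0.92 ± 0.13, SE, limma adjusted p = 0.00047), and ABCA4 and ABCB11 were called lower. Of 183 solute carriers, 3 were called higher and 4 lower (3.83%, near the 3.54% of all genes with a symbol). Among them SLC7A2, a carrier of arginine and lysine, fell by 0.89 ± 0.12 (SE; limma adjusted p = 0.00033).

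Of the 1000 calls, 679 had no symbol. The largest difference of any of them, 6.27 ± 0.33 (SE; limma adjusted p = 6.7e-09), was that of TC529750, an identifier that the files describe as unknown. It was not well above background on any WI array and at least 21.4-fold higher after 6 h of cold.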
